A study of Drosophila melanogaster with 4 samples.

Results

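The proteasome subunit genes of Drosophila melanogaster were followed in ovaries of wuho mutants. They were taken from the deposited expression table by name, as every gene called Rpt, Rpn, Prosalpha or Prosbeta with a number, which gave 47 of 17475 genes. Of these, 32 are general subunits and 15 are testis-type copies, whose names end in R or T, with or without a number after it. Ovary RNA of 4 libraries was sequenced, 2 from wh7 mutant flies and 2 from wild-type control flies, all in the w1118 background, 7 days old and cultured at 25 °C. The sources used here do not describe the wh7 lesion, the number of flies behind a library or whether the 2 libraries of a genotype came from separate cultures. The p-values below therefore reflect just the spread among these libraries, which may be technical. The labels carry a further description field that names a tkv RNAi experiment, and the level of the mutated gene was used as the check of the labels.

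The proteasome is the large protease that degrades ubiquitin-tagged proteins in the cytoplasm and nucleus. Its core particle is a barrel of stacked rings, in which outer rings of alpha subunits gate the entrance and inner rings of beta subunits hold the proteolytic sites. A regulatory particle caps the barrel, where non-ATPase subunits bind and strip ubiquitin chains and a ring of ATPases unfolds the substrate and threads it into the core. All of these subunits are needed in fixed proportions, and their genes are known to be transcribed together in animal cells. The Drosophila genome holds further subunit genes that arose by duplication and are expressed mainly in the testis, where some of them, such as the alpha6T subunit, replace the general subunit during sperm formation. In the ovary, regulated degradation by the proteasome is used in the cell cycle of the germline and in the passage from oocyte to egg.

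wuho, the gene that names the mutant and the fly member of the WDR4 family of tRNA methylation factors, had 0.832 and 0.646 FPKM in wh7 ovaries, against 24.7 and 25.4 FPKM in control ovaries. The libraries labelled wh7 thus held little wuho RNA, and the genotypes did not overlap. The deposited values are FPKM, read numbers scaled for transcript length and library size, so levels can be compared between genes. At the low end, 1 read in a transcript of 1 kb was worth between 0.0524 and 0.0552 FPKM, and 1 FPKM of such a transcript stood for 18.1 to 19.1 reads. No read counts are given, so reads quoted below are approximate and carry no interval. Differences are wh7 minus control on the scale of log2(FPKM + 1), from limma across the 8580 genes that reached 1 FPKM in at least 2 libraries, and a gene was called where its Benjamini-Hochberg adjusted p was under 0.05. Of these genes 39.7% were called, 21.2% higher and 18.4% lower in wh7.

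Marker genes described the makeup of the ovaries. Germline genes such as vas and osk were abundant in every library, and of 6 germline markers tested 0 were higher and 2 lower in wh7, with summed levels of 1330 and 1457 FPKM in wh7 and 1597 and 1615 FPKM in control ovaries. Muscle sheath markers were 8 of 8 higher, with sums of 765 and 1316 FPKM in wh7 and 51.8 and 65.6 FPKM in control ovaries. Hemocyte markers were 4 of 4 tested higher, with sums of 175 and 243 FPKM in wh7 and 19.98 and 14.8 FPKM in control ovaries. Among these, Hml reached the minimum of 1 FPKM in the wh7 libraries alone, as did sls among the muscle sheath markers. Both thus had to differ to be tested, and their calls are a description. Follicle cell markers were 2 higher and 0 lower of 5 tested, with sums of 2875 and 3578 FPKM in wh7 and 935 and 2425 FPKM in control ovaries. Beside these counts, 21.2% of all tested genes were called higher and 18.4% lower in wh7. The germline and follicle cell counts rest on few genes. These are whole ovaries, in which fewer cells of a type and less RNA per cell cannot be told apart.

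The general subunits kept nearly the same level in mutant and control ovaries. Of 31 tested general subunits, 0 were called higher and 1, Rpn12, was called lower, which is 3.23% against 39.7% of all tested genes. Their median log2 difference was -0.07, beside -0.04 for all tested genes, and 5 of 31 lay above 0, or 14 of 31 under quantile normalization and 11 of 31 under median ratio scaling. The single values ran from -0.30 to 0.18. As folds, the ratios of mean FPKM ran from 0.808 to 1.14. The 95% interval of the difference lay within 1.5-fold either way for 31 of 31 general subunits, against 37.9% of all tested genes, and the bounds reached from -0.56 to 0.46 on the log2 scale. These subunits are abundant, between the 86.9th and 96.4th percentile of level, and no share for genes of like level was computed. The 2 wh7 libraries lay outside the range of the controls for 11 of them, or 35.5%, where 77.0% of all tested genes had groups without overlap. Both mutant libraries were higher for 2 subunits, against 35.7% of all tested genes, and lower for 9, against 41.3%. In the authors' deposited table, 0 general subunits carry the significance mark, which 9.50% of all genes carry.

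**Figure D1:**
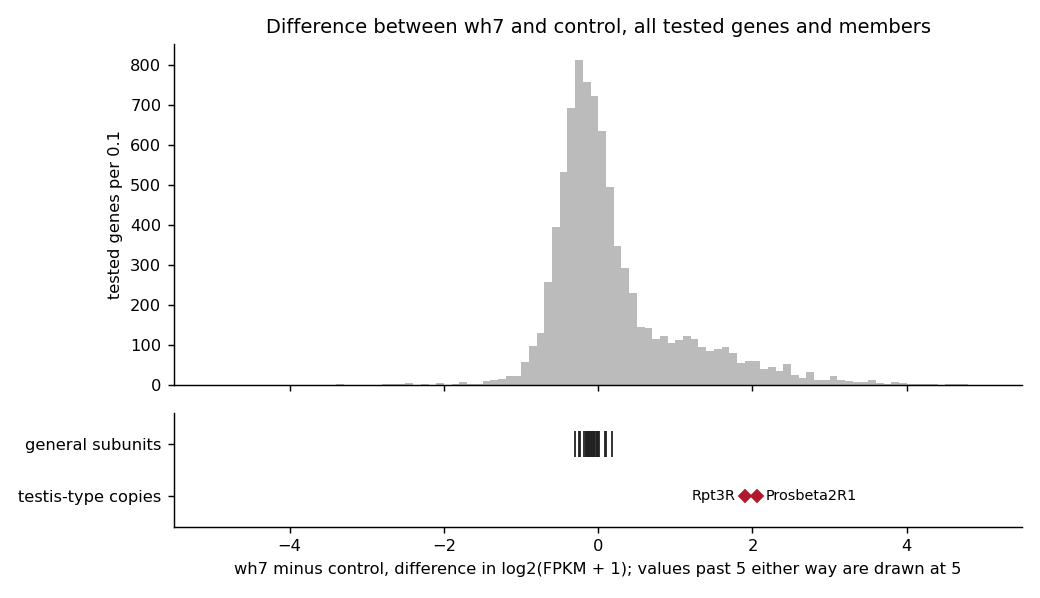
Histogram of the difference between wh7 and control ovaries in log2(FPKM + 1) for the 8580 tested genes (upper panel, genes per bin), with each tested general subunit as a tick and each tested testis-type copy as a diamond on the same axis (lower panel). The 31 general subunits lie between -0.30 and 0.18, and the copies Rpt3R and Prosbeta2R1 lie at 1.90 and 2.05.

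Levels of the general subunits were high and close together. In each library their FPKM stood between the 86.9th and 96.4th percentile of all tested genes, and the highest was 2.33 to 2.62 times the lowest. Prosbeta4, a beta ring subunit without proteolytic activity, was the highest in every library, with 260.2 and 247 FPKM in wh7 ovaries, against 273 and 281 FPKM in control ovaries. Rpt3, an ATPase, was the lowest in every library, with 112 and 93.9 FPKM in wh7 ovaries, against 112 and 109 FPKM in control ovaries. The coefficient of variation between subunits was 23.6 to 24.8% in the 4 libraries. Together the 31 genes held 0.778 and 0.666% of the summed FPKM in wh7 and 0.805 and 0.753% in control ovaries, so the lowest share was that of wh7 library 2.

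Subunits of the core particle stood above those of the regulatory particle. The median core subunit had 212 and 195 FPKM in wh7 and 209.9 and 218 FPKM in control ovaries. The median regulatory subunit had 149 and 134 FPKM in wh7 and 147 and 153 FPKM in control ovaries. The ratio of these medians was 1.42 and 1.45 in wh7 and 1.43 and 1.43 in control libraries. It thus moved by less between genotypes than between the wh7 libraries. In every library 12 of 13 tested core subunits lay above the regulatory median, the exception being Prosalpha5, with 134 and 118.4 FPKM in wh7 ovaries, against 135 and 137 FPKM in control ovaries. Between subunits, mean log2 levels in wh7 and control ovaries correlated with Pearson's r of 0.955 across 31 genes of the same libraries, which are not independent replicates.

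**Figure D2:**
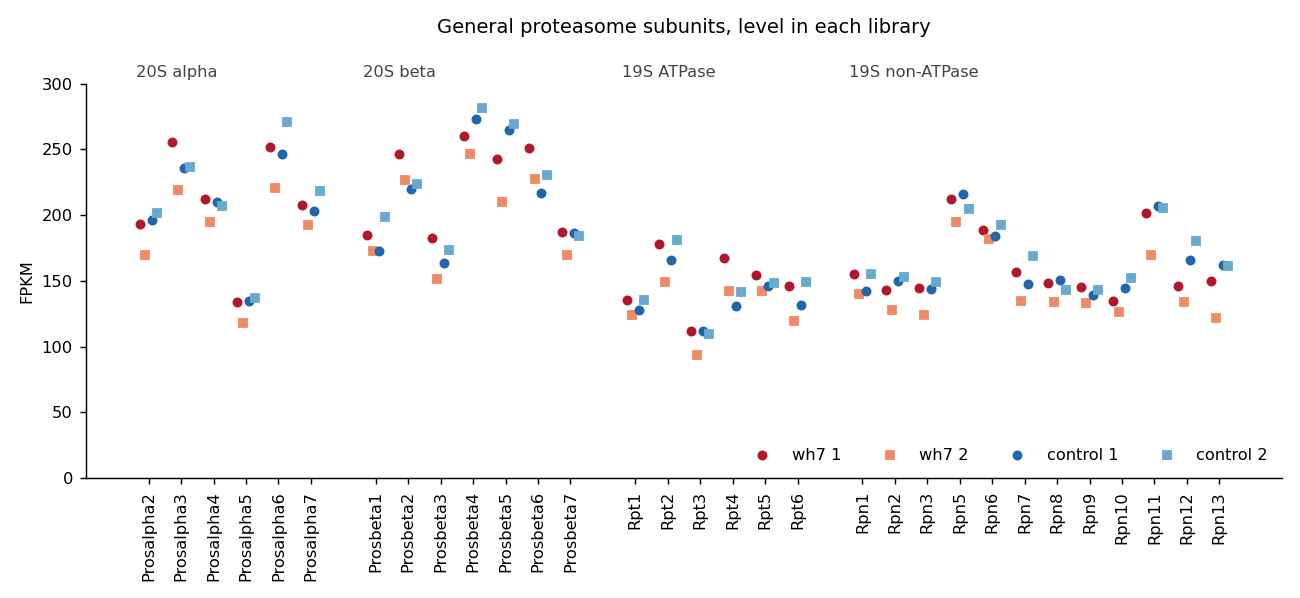
FPKM of the 31 general subunits with values above 0 (y axis, from 0), grouped by role; each gene has 4 points, wh7 1 and wh7 2 in red shades on the left and control 1 and control 2 in blue shades on the right. The core particle is labelled 20S and the regulatory particle 19S; 12 of 13 core subunits lie above the median regulatory subunit in all 4 libraries, and wh7 2 is below wh7 1 for all 31 genes.

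Prosalpha1 is the general subunit without a value. It is listed at 0 in all 4 libraries, on chromosome arm 2R, whereas the other 6 alpha subunits had medians of 210.1 and 193 FPKM in wh7 and 207 and 213 FPKM in control ovaries. The gene CG30382, which RefSeq names Prosalpha1R and which lies 1734 bases away on the same strand, is also listed at 0 in all 4 libraries; it is not matched by the naming rule and was looked up after the 0 of Prosalpha1 was seen. The sources used here do not say how reads matching both genes were counted. A 0 for Prosalpha1 therefore says nothing of its level, and no difference could be computed for it.

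The remaining alpha ring genes, which form the gated outer rings, did not pass the test in either direction. Prosalpha2 had 193 and 169.6 FPKM in wh7 ovaries, against 196 and 202 FPKM in control ovaries. Prosalpha3 had 255 and 219 FPKM in wh7 and 236 and 237 FPKM in control ovaries, and Prosalpha4 had 212 and 195 FPKM in wh7 and 209.9 and 207 FPKM in control ovaries. For Prosalpha2 both mutant libraries lay below both controls, while for Prosalpha3 and Prosalpha4 the groups overlapped. Prosalpha6 had 252 and 221 FPKM in wh7 and 247 and 271 FPKM in control ovaries. Prosalpha7 had 208 and 192 FPKM in wh7 and 203 and 218 FPKM in control ovaries. The groups overlapped for both. The median log2 difference of the 6 genes was -0.09, with 5 below 0, and single values ran from -0.13 for Prosalpha2 to 0.0018 for Prosalpha3.

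In the beta rings, 3 genes encode the proteolytic subunits. Prosbeta1, with caspase-like activity, had 185 and 173 FPKM in wh7 and 173 and 199 FPKM in control ovaries. Prosbeta2, with trypsin-like activity, had 246 and 227 FPKM in wh7 and 220.2 and 224 FPKM in control ovaries. Prosbeta5, with chymotrypsin-like activity, had 243 and 210.4 FPKM in wh7 ovaries, against 265 and 269 FPKM in control ovaries. The groups overlapped for Prosbeta1, wh7 lay higher for Prosbeta2 and lower for Prosbeta5. The log2 differences were -0.05 ± 0.0986 for Prosbeta1 (SE, limma adjusted p = 0.696), 0.09 ± 0.0789 for Prosbeta2 (adjusted p = 0.399) and -0.24 ± 0.0964 for Prosbeta5 (adjusted p = 0.106), so none passed. Among the subunits without proteolytic activity, Prosbeta3 had 183 and 151 FPKM in wh7 and 163 and 174 FPKM in control ovaries, with overlap of the groups. Prosbeta6 had 251 and 228 FPKM in wh7 and 217 and 230.4 FPKM in control ovaries, and Prosbeta7 had 187 and 169.7 FPKM in wh7 and 186 and 184 FPKM in control ovaries. The groups overlapped for both of these, and Prosbeta4, given above, was lower in both mutant libraries with a log2 difference of -0.13 (adjusted p = 0.224). The median over the 7 beta genes was -0.05, and 0.03 under quantile normalization.

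Of the 6 ATPases that unfold substrates, 0 were called, with a median log2 difference of -0.05, or 0.01 under quantile normalization. Rpt1 had 135 and 124 FPKM in wh7 and 128 and 135 FPKM in control ovaries. Rpt2 had 178 and 149 FPKM in wh7 and 166 and 181 FPKM in control ovaries. Rpt5 had 155 and 142 FPKM in wh7 and 146 and 148 FPKM in control ovaries. The groups overlapped for each of them, and likewise for Rpt3 and for Rpt6, which had 146 and 119 FPKM in wh7 and 132 and 149 FPKM in control ovaries. Rpt4 was the ATPase without overlap, with 167.8 and 142.2 FPKM in wh7 ovaries, against 131.2 and 141.6 FPKM in control ovaries. The mutant libraries lay above the controls, by 0.18 ± 0.108 on the log2 scale (SE, limma adjusted p = 0.238), which did not pass the threshold. Rpt4, on X from 6289470 to 6291245 on the minus strand (BDGP6, 5 exons), overlaps the end of its convergent neighbour wuho on the plus strand, and the annotated exons of the pair share 93 bases, 6.35% of the Rpt4 transcript. The deposited locus merges both genes, and the sources used here do not say whether reads were counted by strand, so reads from the overlap cannot be assigned. Without Rpt4 the median of the general subunits was -0.08, and the largest difference above 0 was 0.10, for Prosbeta6.

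The non-ATPase subunits had the lowest median difference, -0.12, and 12 of 12 lay below 0, or 8 of 12 under quantile normalization and 9 of 12 under median ratio scaling. Without wh7 library 2 their median was -0.01 and 7 of 12 lay below 0, so the shared direction rested on that library. Of all 8580 tested genes, 4581 lay below 0. Of the non-ATPase subunits, 1 of 12 was called. That gene was Rpn12, a subunit of the lid, the part of the regulatory particle that removes ubiquitin chains. Rpn12 had 146 and 134 FPKM in wh7 ovaries, against 166 and 181 FPKM in control ovaries. Both mutant libraries lay below both controls. The log2 difference was -0.30 ± 0.0867 (SE, 95% interval -0.53 to -0.08, limma adjusted p = 0.0485), or 0.808 of the control mean. Rpn12 is on 3L from 16583028 to 16584022 on the plus strand (BDGP6), in a single exon, with no other gene over its exon in the annotation. The call was lost in 9 of 10 alternative settings, with adjusted p between 0.0480 and 0.193, and the authors' deposited table gives a q-value of 0.445.

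The ubiquitin receptors Rpn10 and Rpn13 also lay lower in both mutant libraries, without passing the test. Rpn10 had 135 and 126 FPKM in wh7 ovaries, against 145 and 152 FPKM in control ovaries, a log2 difference of -0.18 ± 0.0776 (SE, limma adjusted p = 0.118). Rpn13 had 149.9 and 122 FPKM in wh7 ovaries, against 162 and 161 FPKM in control ovaries, a log2 difference of -0.25 ± 0.117 (SE, adjusted p = 0.142). Most of the Rpn13 difference came from wh7 library 2, and without wh7 library 1 it was -0.40 with an adjusted p of 0.0390. The deubiquitinating enzyme Rpn11 had 202 and 169 FPKM in wh7 ovaries, against 207 and 206 FPKM in control ovaries, also without overlap, and its partner in the lid, Rpn8, had 148 and 134 FPKM in wh7 and 151 and 143 FPKM in control ovaries, with overlap.

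The scaffold subunits of the base, Rpn1 and Rpn2, differed in where the libraries lay. Rpn1 had 155 and 140.1 FPKM in wh7 and 142 and 155 FPKM in control ovaries, with overlap. Rpn2 had 143 and 128 FPKM in wh7 and 150.3 and 153 FPKM in control ovaries, with both mutant libraries lower and an adjusted p of 0.183. Of the lid subunits that form its frame, Rpn5 was the most abundant, with 212 and 195 FPKM in wh7 and 216 and 205 FPKM in control ovaries. Rpn6 had 189 and 182 FPKM in wh7 and 184 and 192 FPKM in control ovaries, and Rpn3 had 144.3 and 124.2 FPKM in wh7 and 143.7 and 149.0 FPKM in control ovaries. For Rpn5, Rpn6 and Rpn3 wh7 library 1 lay inside the control range and wh7 library 2 below it. Rpn7 had 157 and 135 FPKM in wh7 and 147 and 169 FPKM in control ovaries, and Rpn9 had 146 and 133 FPKM in wh7 and 139 and 143 FPKM in control ovaries, both with overlap.

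**Figure D3:**
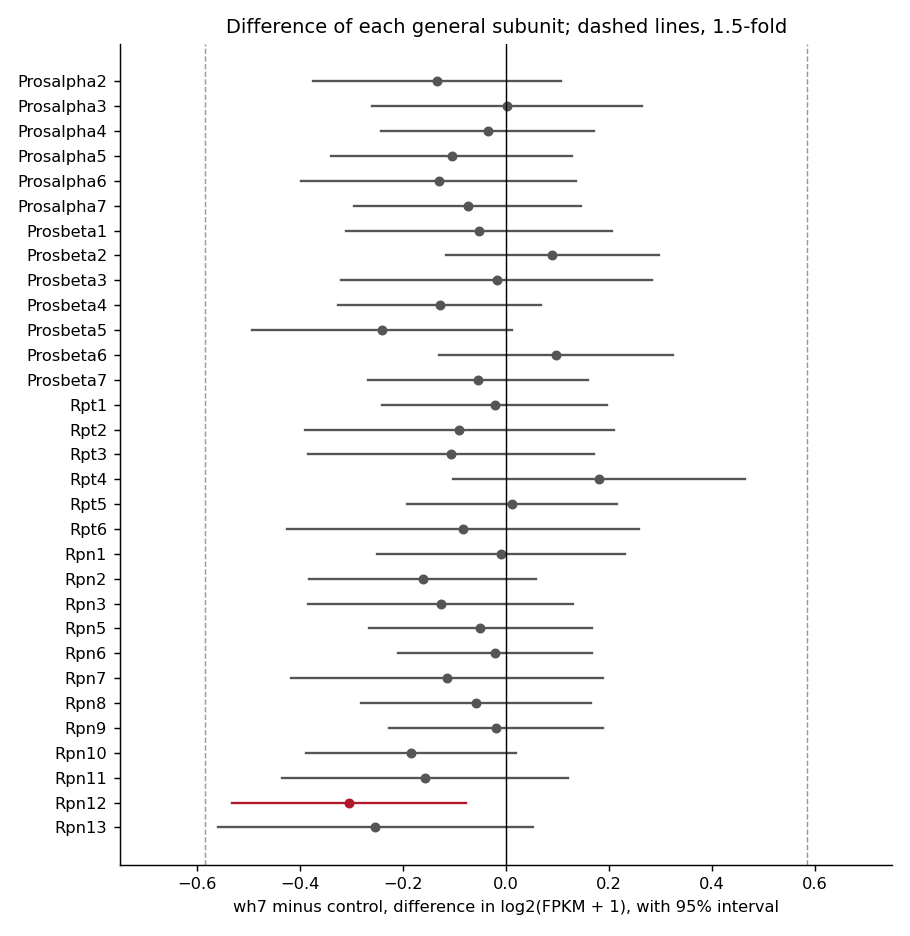
Difference between wh7 and control ovaries in log2(FPKM + 1) for each of the 31 tested general subunits (x axis), as a point with its 95% interval from limma; the solid line is no difference, the dashed lines are 1.5-fold either way, and red marks the gene called. Only the interval of Rpn12, the red point at -0.30, leaves out 0, and every interval ends inside the dashed lines.

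Every tested general subunit was higher in wh7 library 1 than in wh7 library 2. The ratio of wh7 library 1 to wh7 library 2 had a median of 1.11 over the general subunits, with a range of 1.04 to 1.23, and was above 1 for 31 of 31. Over all tested genes the median of this ratio was 0.993 and 48.0% were above 1. Between the controls, the ratio of library 2 to library 1 had a median of 1.03 over the general subunits, with 24 of 31 above 1, and 1.001 over all tested genes. Set against the mean of the controls, wh7 library 1 had a median ratio of 1.01, with 17 of 31 subunits above 1, and wh7 library 2 had a median ratio of 0.897, with 3 of 31 above 1. Over all tested genes these medians were 0.956 and 0.974. The direction of the general subunits' median therefore rested on wh7 library 2: without it the median was 0.01, and without wh7 library 1 it was -0.15. Muscle sheath and hemocyte markers were highest in the same library, at 1316 and 243 FPKM, and their part in its lower proteasome levels was not tested.

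**Figure D4:**
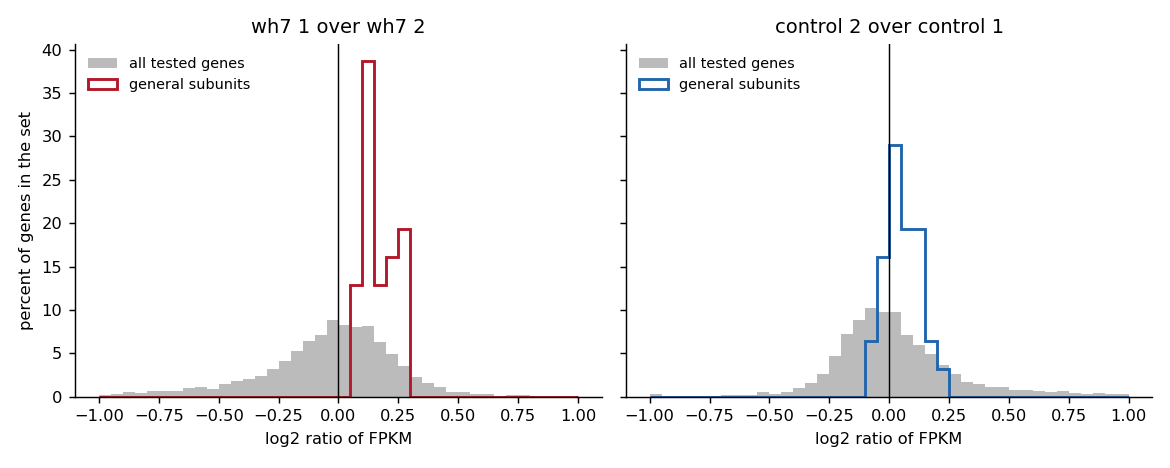
Log2 ratio of FPKM between libraries of the same genotype (x axis; left panel wh7 1 over wh7 2, right panel control 2 over control 1), as the percent of genes per bin, for all tested genes above 0 in every library (grey, ratios beyond 2-fold not drawn) and for the 31 general subunits (coloured outline). All 31 subunits lie to the right of 0 in the wh7 panel and 24 do so in the control panel.

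The testis-type copies were scarce in both genotypes, and nearly all of their summed FPKM was in the mutant, most of it from Rpt3R and Prosbeta2R1. Of 15 copies, 9 were above 0 in at least 1 library, all 9 of them in a wh7 library and 4 in a control library, and 7 were above 0 in both wh7 libraries against 1 in both controls. Both mutant libraries lay above both controls for 6 of 15 copies and below for 0, where 32.6% of all genes in the table were higher without overlap. The summed FPKM of the copies was 11.8 and 10.6 in wh7 and 0.682 and 0.698 in control ovaries, which is 0.209 and 0.211% of the FPKM of all proteasome subunit genes in wh7 and 0.0124 and 0.0122% in control ovaries. Only Rpt3R and Prosbeta2R1 reached the minimum level for testing, and both did so through the wh7 libraries alone, so that they had to differ to be tested. Their differences are therefore given as a description, with no test.

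Rpt3R, a copy of the ATPase gene Rpt3, was the highest, with 6.40 and 3.94 FPKM in wh7 ovaries, against 0.682 and 0.557 FPKM in control ovaries. These stood for about 172 and 102 reads in wh7 and 18.6 and 14.8 reads in control libraries, and the groups did not overlap. The mutant mean was 8.34 times the control mean, and the log2 difference was 1.90, or 0.82 under quantile normalization. The authors' deposited table gives a q-value of 0.527. Rpt3R made up 5.41 and 4.02% of the FPKM of Rpt3 and Rpt3R together in wh7 and 0.608 and 0.506% in control ovaries. It is on 3R from 9754735 to 9756510 on the minus strand (BDGP6, 3 exons), while Rpt3 is on X. It shares 20 bases with the oppositely oriented Alg12, which had 13.2 and 13.3 FPKM in wh7 and 9.31 and 11.1 FPKM in control ovaries; reads were not separated here.

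Prosbeta2R1, a copy of the gene for the trypsin-like subunit, had 2.85 and 3.72 FPKM in wh7 ovaries, while control library 1 listed it at 0 and control library 2 at 0.0522 FPKM. That is about 57.6 and 72.6 reads in wh7 and 0 and 1 read in control libraries. The log2 difference was 2.05, which with 1 read in the controls depends on the added 1 FPKM. It ran from 1.05 under quantile normalization to 4.77 with 0.1 FPKM added. The authors' deposited table gives a q-value of 0.610. The gene lies on X from 5808954 to 5810158 on the plus strand (BDGP6, 3 exons). Its sister copy Prosbeta2R2, on 3R from 5217751 to 5219528 on the minus strand, had 0.822 and 1.05 FPKM in wh7 ovaries and was listed at 0 in both control libraries. Prosbeta2R2, with about 20.4 and 25.2 reads in wh7, is the one proteasome gene that carries the significance mark in the authors' deposited table, with a q-value of 8.70e-04.

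Below these, Rpn12R, Rpt6R and Rpt4R were low but above 0 in both mutant libraries. Rpn12R, a copy of the lid gene Rpn12, had 0.711 and 0.736 FPKM in wh7 ovaries and was listed at 0 in both controls. Rpt6R, a copy of the ATPase gene Rpt6, had 0.528 and 0.764 FPKM in wh7 and 0 and 0.0368 FPKM in control ovaries. Rpt4R, a copy of Rpt4, had 0.331 and 0.228 FPKM in wh7 ovaries, about 9.3 and 6.2 reads, and was listed at 0 in both controls. The mutant libraries of these 3 genes lay above the controls, with about 6.2 to 20 reads each in wh7. Rpn12R, on 3L from 15041631 to 15042570, lies in an intron of Sytbeta on the same strand, which had 0.117 and 0.0495 FPKM in wh7 and 0 and 0.0125 FPKM in control ovaries, and the deposited locus spans both.

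The other copies were at the limit of detection. Rpn13R had 0.0987 and 0.0511 FPKM in wh7 and 0 and 0.0516 FPKM in control ovaries, or 2 and 1 reads against 0 and 1. Prosalpha4T2 was above 0 in wh7 library 2, at 0.0936 FPKM, and Prosbeta5R1 in wh7 library 1, at 0.0483 FPKM, from about 2.1 reads and 1 read. Prosalpha3T, Prosalpha4T1, Prosalpha6T, Prosbeta4R1, Prosbeta4R2 and Prosbeta5R2 were listed at 0 in all 4 libraries. At this depth no difference was detectable for these 9 genes. In a fit with no minimum level, 6 of the 9 copies in it were called higher and 0 lower, beside 14.6% of its 13865 genes called higher. The 6 were Prosbeta2R1, Rpn12R, Prosbeta2R2, Rpt6R, Rpt3R and Rpt4R. Each of the 9 copies in the fit was above 0 in a wh7 library, and 5 were above 0 in wh7 only. Those 5 could only come out higher, so these calls are a description and support nothing. The 6 copies at 0 throughout were not in this fit.

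**Figure D5:**
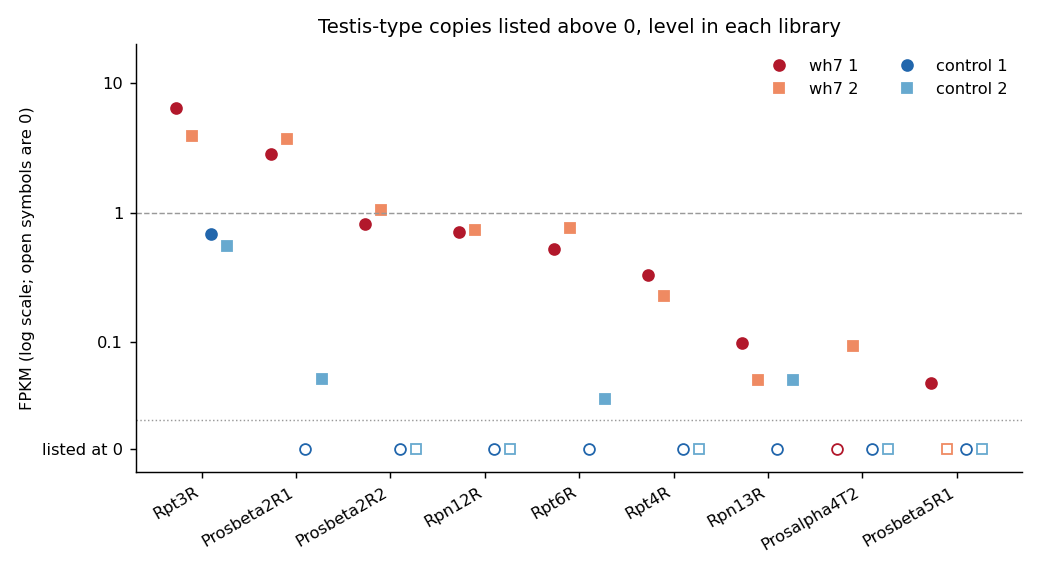
FPKM on a log scale (y axis) of the 9 testis-type copies listed above 0 in at least 1 library; each gene has 4 points, wh7 1 and wh7 2 in red shades on the left and control 1 and control 2 in blue shades on the right, open symbols on the lowest line are values of 0, and the dashed line is the testing minimum of 1 FPKM. Rpt3R and Prosbeta2R1 exceed the dashed line in both wh7 libraries, and most control points are open.

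The level of other low genes moved in the same direction. The wh7 libraries listed 4671 and 4724 genes of the table at 0, against 6733 and 6553 in the control libraries. Of 5914 genes at 0 in both controls, 17.9% were above 0 in both wh7 libraries, and of 11 copies at 0 in both controls, 3 were. Of 3859 genes at 0 in both wh7 libraries, 0.803% were above 0 in both controls. Testis markers were above the controls in both wh7 libraries for 16 of 24 genes and below for 2, where 32.6% of all genes in the table were higher without overlap. At 0 in both controls were 12 of the 24. The summed level of the 24 testis markers was 93.7 and 77.0 FPKM in wh7 and 125 and 106 FPKM in control ovaries. Most of it came from twe and bol, a phosphatase and an RNA-binding protein needed for male meiosis. twe alone had 62.3 and 44.1 FPKM in wh7 and 105 and 86.5 FPKM in control ovaries. It was thus well expressed in control ovaries, and the lower sum in wh7 does not describe testis-type transcripts as a set. The markers at 0 in both controls were sa, nht, dj, djl, Mst84Da, Mst84Db, Mst84Dc, Mst84Dd, Mst87F, Mst98Ca, ocn and soti, of which 8 were above 0 in both wh7 libraries and 4 in 1 of them. Markers at 0 in both controls could only stay at 0 or come out higher, so their direction supports nothing. The 8 are among the 16 above the controls. Of 6 testis markers tested, 3 were called higher and 1 lower, beside 21.2% higher and 18.4% lower of all tested genes. Of the 3, sa was at 0 in both controls and reached the minimum level through wh7 alone. It could only come out higher, so its call is a description. The part of testis-type transcription or of low values in general in the copies' levels was not tested.

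The annotation describes how the copies compare with their general genes. They belong to 11 of the 32 general subunits, and 10 of 15 lie on another chromosome arm than the general gene. Of the copies 10 have fewer exons than their general gene, 5 have as many and 0 have more, and 6 of 15 consist of a single exon against 4 of 32 general subunits. By annotated protein length, 8 of 15 copies are longer than the general subunit, such as Prosbeta2R2 with 321 and Prosbeta2R1 with 306 residues beside 271 for Prosbeta2, while Rpt3R with 404 residues is shorter than Rpt3 with 412. Prosbeta4R1 and Prosbeta4R2 are tandem neighbours on 2L, 1467 bases apart, and were both at 0. Of the copies with reads in both mutant libraries, Rpt3R, Rpt4R, Rpt6R, Rpn12R and Rpn13R belong to the regulatory particle and Prosbeta2R1 and Prosbeta2R2 to the beta ring; of the 4 alpha copies, 3 were at 0 throughout and Prosalpha4T2 had about 2.1 reads in 1 library.

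Genes around the proteasome were given by lists, whose counts stand beside 21.2% of all tested genes called higher and 18.4% called lower. Of 10 activators, assembly factors and bound enzymes, 0 were higher and 2 lower, with a median log2 difference of -0.09, beside -0.04 for all tested genes; under quantile normalization the median was 0.0024. Sem1, a small subunit of the lid outside the naming rule, had 393 and 366 FPKM in wh7 ovaries, against 499 and 474 FPKM in control ovaries, a log2 difference of -0.36 ± 0.0859 (SE, limma adjusted p = 0.0327). CG12321 had 51.9 and 44.5 FPKM in wh7 ovaries, against 71.7 and 81.0 FPKM in control ovaries, a difference of -0.65 (adjusted p = 0.0174). Both were lower in both mutant libraries. The call of Sem1 was lost in 7 of 10 alternative settings and that of CG12321 in 2, both without a control library.

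Of 13 genes for ubiquitin, its activating enzyme and shuttle factors, 0 were higher and 3 lower, with a median of -0.15. Of all tested genes, 21.2% were called higher and 18.4% lower, so the 3 of 13 lay near the share over all genes. The ubiquitin gene Ubi-p5E had 148 and 129.9 FPKM in wh7 ovaries, against 204 and 210.1 FPKM in control ovaries, a log2 difference of -0.58 (limma adjusted p = 0.0138). Rad23, which carries ubiquitinated proteins to the proteasome, had 242 and 241 FPKM in wh7 ovaries, against 335 and 303 FPKM in control ovaries, a difference of -0.39 (adjusted p = 0.0256). Uba1, the ubiquitin-activating enzyme, had 215 and 212 FPKM in wh7 ovaries, against 272 and 256 FPKM in control ovaries, a difference of -0.30 (adjusted p = 0.0339). The groups did not overlap for any of the 3, and the calls were lost in 2 of 10 alternative settings for Ubi-p5E, without either control library, 4 for Rad23 and 6 for Uba1.

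Among 4 transcription factors of proteasome genes, 1 was higher and 0 lower. For this list and the next, the shares over all tested genes were 21.2% higher and 18.4% lower. maf-S, the small Maf partner of the Nrf-family factor cnc, had 54.9 and 50.7 FPKM in wh7 ovaries, against 42.0 and 39.9 FPKM in control ovaries, a log2 difference of 0.36 ± 0.0883 (SE, limma adjusted p = 0.0352), with both mutant libraries higher; the call was lost when any of the 4 libraries was left out. Of the COP9 signalosome, a complex related to the proteasome lid, 0 were higher and 1 lower of 8 tested, with a median of 0.05, and CSN1a was at 0 in all libraries. CSN8 had 38.3 and 44.6 FPKM in wh7 ovaries, against 61.2 and 63.4 FPKM in control ovaries, a difference of -0.58 (adjusted p = 0.0178), and its groups did not overlap; the call was lost without either control library.

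Ubiquitin ligases of the SCF and APC types, which mark cell-cycle proteins for the proteasome, were 0 higher and 4 lower of 15 tested, with a median log2 difference of -0.22. ago, the F-box protein that targets cyclin E, had 68.6 and 60.8 FPKM in wh7 ovaries, against 106 and 99.3 FPKM in control ovaries, a difference of -0.66 ± 0.0935 (SE, limma adjusted p = 0.0112). It also carries the significance mark in the authors' deposited table, with a q-value of 0.0199. fzy, the Cdc20 activator of the APC, had 96.3 and 70.9 FPKM in wh7 and 141 and 120.3 FPKM in control ovaries, a difference of -0.65 (adjusted p = 0.0420). Cul1, the SCF scaffold, had 180.5 and 140.0 FPKM in wh7 and 249 and 231 FPKM in control ovaries, and the APC subunit Cdc27 had 50.9 and 43.3 FPKM in wh7 and 70.0 and 64.5 FPKM in control ovaries, with differences of -0.59 and -0.51 and adjusted p of 0.0326 and 0.0269. All 4 were lower in both mutant libraries. The calls were lost in 1 of 10 alternative settings for ago, the one without control library 1, in 6 for fzy, and in 5 each for Cul1 and Cdc27. The share called lower, 4 of 15, stands beside 18.4% of all tested genes, and over all 5 lists 1 gene was called higher and 10 lower of 50 tested.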

How the data were processed

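Per the file headers, the authors' table lists FPKM for each library, in which 0.0001 stands in for 0. For the genotypes it lists the ratio wh7 over control, the log2 of that ratio, and a p-value with its q-value, all as the authors deposited them. The labels' protocols describe a strand-specific library kit and single-end reads of 75 bp. Tools named in the submitters' processing notes are bcl2fastq (2.0) and Bowtie (0.12.2), beside the builds BDGP6 and mm8. Of 17171 identifiers found in a BDGP6 annotation, 99.8% lay on the same chromosome. Library sums of FPKM were 723859 and 753290 in wh7 and 682413 and 757801 in control.

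Samples were grouped by source name. With no counts, limma 3.58.1 (R 4.3.3) was fitted with a trended prior to log2(FPKM + 1), after keeping genes with at least 1 FPKM in 2 of 4 libraries. Benjamini-Hochberg adjustment ran over all 8580 genes at a threshold of 0.05, and the fit had 2 residual and 2.69 prior degrees of freedom. For a single gene, the exact two-sided permutation test with 2 against 2 libraries cannot give a p below 0.333. The fit was tested on simulated data. The members, lists and named genes were chosen with earlier results of these data known: every subunit gene is named, and of each list up to 4 genes past the threshold with the largest change. Alternatives were another pseudocount, other minimum levels, quantile and median ratio scaling, leaving out each library and a replicate block. All 4 per-library columns were used and 0 were left out. Protein and promoter sequences were not used here.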

Additional observations from a re-analysis of the deposited data

How the results depend on the processing

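General subunits called numbered 0 with no minimum level, with a minimum of 5 FPKM, under quantile normalization, under median ratio scaling, with the replicate block with the numbers of that block crossed and by the authors' significance marks, against 1 in the values reported, and 0 to 1 when a library was left out. Copies called numbered 6 with no minimum, 0 with a minimum of 5 FPKM, 1 under quantile normalization and 1 by the authors' marks, against 2, and 0 to 2 when a library was left out; without either wh7 library no copy reached 1 FPKM in 2 libraries, so none could be tested. The copies tested had passed the minimum through wh7 alone. With no minimum, 5 of the 9 copies in the fit were above 0 in wh7 only. The counts of copies called therefore support nothing. Genes of the lists called numbered 7 with no minimum, against 11, and 0 to 8 when a library was left out. Of all tested genes 3403 were called, and 764 to 2363 when a library was left out, the lowest without control library 1. Where a genotype had a single library, it was assumed to vary like the other. The only general subunit gained was Rpn13, without wh7 library 1.

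Of the general subunits not called, 15 changed sign in at least 1 setting. Under quantile normalization the log2 differences became 0.046 for Prosalpha4, 0.030 for Prosbeta1, 0.048 for Prosbeta3, 0.012 for Prosbeta7, 0.047 for Rpn1, 0.025 for Rpn5, 0.050 for Rpn6, 0.033 for Rpn9 and 0.043 for Rpt1. Under median ratio scaling they became 0.011 for Prosalpha4, 0.028 for Prosbeta3, 0.035 for Rpn1, 0.025 for Rpn6, 0.026 for Rpn9 and 0.024 for Rpt1. Leaving out each library gave ranges of -0.11 to 0.11 for Prosalpha3, -0.097 to 0.026 for Prosalpha4, -0.15 to 0.047 for Prosbeta1, -0.15 to 0.12 for Prosbeta3, -0.13 to 0.016 for Prosbeta7, -0.085 to 0.063 for Rpn1, -0.11 to 0.011 for Rpn5, -0.052 to 0.0093 for Rpn6, -0.13 to 0.014 for Rpn8, -0.084 to 0.045 for Rpn9, -0.086 to 0.042 for Rpt1, -0.22 to 0.038 for Rpt2, -0.23 to 0.017 for Rpt3, -0.048 to 0.072 for Rpt5 and -0.23 to 0.063 for Rpt6. The cause of these changes was not tested. Relative to all tested genes, the median of the general subunits lay between -0.14 and 0.11 over the settings tried.

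The labels number the libraries, but same-numbered libraries deviated with a correlation of -0.165 over 8580 genes, so the numbers give no pairing. With the replicate block 3624 genes were called, 0 general subunits, 2 copies and 13 list genes. With the numbers crossed, a setting chosen after seeing the data, 2729 genes, 0 general subunits, 2 copies and 7 list genes were called. With 2 libraries per genotype and no counts, small differences and genes of a few reads could not be resolved.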
